A study of Homo sapiens with 6 samples.

Results

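Glycolysis and the response to low oxygen were followed through 39 genes, each taken as the row of the deposited expression table whose gene name equals that symbol. All 39 had a row among the table's 29435, and all 39 were among the 11427 rows tested, which had an FPKM (fragments per kilobase of transcript, relative to library size) of 1 or more in 3 or more libraries. They comprise 25 glycolytic enzymes, their regulators and transporters, 11 targets of the hypoxia-inducible factors (HIFs) outside glycolysis, and 3 genes of the HIF system itself (HIF1A, EPAS1 and HIF1AN). The cells carried the name HepG2, a widely used liver cancer line, and received either the solvent DMSO or 20 µM saikosaponin A (SsA, a plant saponin) for 4 h. No genotype, transgene or other agent is named for either group, which share the same serum-containing medium. RNA-seq gave 3 libraries per group, and the labels do not say whether these came from separate cultures, so the p-values below measure only the spread between these libraries. Which of these genes differ in mRNA level between SsA and DMSO is the question the design puts.

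Glycolysis converts glucose taken up by SLC2A transporters to pyruvate, which lactate dehydrogenase reduces to lactate for export by monocarboxylate transporters. The HIFs are transcription factors made of an oxygen-labile alpha subunit (HIF1A or EPAS1) and a stable partner, ARNT. Prolyl hydroxylases of the EGLN family mark the alpha subunits for destruction through VHL when oxygen is plentiful, and the asparaginyl hydroxylase HIF1AN blocks their recruitment of the coactivators CREBBP and EP300. Liver tumour lines are known for high glycolytic flux, and many glycolytic genes are HIF1A targets. The alpha subunits are controlled largely at the protein level, which RNA-seq does not measure.

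Library totals ran from 57768359 to 74912492 counts. Mitochondrially encoded genes took 6.19% to 8.28% of counts in 4 libraries, 14.9% in DMSO replicate 3 and 18.8% in SsA replicate 1. These 2 libraries are given apart wherever a result rests on them. The label of the cells was checked against markers. Of 14 hepatocyte markers listed, 8 had a row. All 8, among them APOA1, TF, FGB and HNF4A, stood below 0.1 FPKM in mean and at most at 0.0583 FPKM in any library. They had 7 to 27 counts summed per library, and none of the 8 was at 0 in every library. The hepatocyte markers thus did not bear out the name HepG2, which is kept here as the labels give it. Of the 5 epithelial markers with a row 4 had a mean of at least 1 FPKM, among them the keratins KRT7, KRT8 and KRT18, as had 3 of 5 fibroblast markers, 1 of 2 leukocyte markers and 0 of 3 endothelial markers. Their part in the results was not tested. In bulk libraries fewer cells of a type and less RNA per cell cannot be told apart.

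HIF binds a short core in DNA, and the windows before the start sites of 5 members are shown because they range from rich to empty in that core. The core searched was ACGTG or GCGTG on either strand, so that CACGT and CACGC also count, and a palindromic CACGTG counts as 2 matches. Capitals mark the matches. Each window is the 250 bases upstream of the first start site listed for the gene by RefSeq (GRCh38.p14), read 5′ to 3′ on the gene's own strand. LDHA (chr11:18394313-18394562, plus strand) held 5 matches, 4 of them in 2 copies of CACGTG. ANKRD37 (chr4:185396591-185396840, plus strand) held 3, ENO1 (chr1:8878687-8878936, minus strand) held 2, CA9 (chr9:35673678-35673927, plus strand) held 1 and EGLN3 (chr14:33951075-33951324, minus strand) held 0.
LDHA: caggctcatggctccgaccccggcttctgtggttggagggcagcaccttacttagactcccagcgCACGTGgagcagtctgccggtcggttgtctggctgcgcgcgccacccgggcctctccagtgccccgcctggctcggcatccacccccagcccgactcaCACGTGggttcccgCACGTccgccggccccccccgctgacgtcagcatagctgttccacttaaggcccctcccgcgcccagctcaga
ANKRD37: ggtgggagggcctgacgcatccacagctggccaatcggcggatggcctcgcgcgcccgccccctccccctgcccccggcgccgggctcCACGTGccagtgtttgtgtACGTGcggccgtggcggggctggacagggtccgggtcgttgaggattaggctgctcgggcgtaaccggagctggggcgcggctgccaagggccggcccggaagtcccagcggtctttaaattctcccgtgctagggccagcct
ENO1: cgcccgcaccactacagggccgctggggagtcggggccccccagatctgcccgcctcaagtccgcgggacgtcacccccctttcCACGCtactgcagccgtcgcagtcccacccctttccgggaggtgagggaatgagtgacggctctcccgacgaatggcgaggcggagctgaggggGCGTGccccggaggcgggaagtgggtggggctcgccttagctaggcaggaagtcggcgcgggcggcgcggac
CA9: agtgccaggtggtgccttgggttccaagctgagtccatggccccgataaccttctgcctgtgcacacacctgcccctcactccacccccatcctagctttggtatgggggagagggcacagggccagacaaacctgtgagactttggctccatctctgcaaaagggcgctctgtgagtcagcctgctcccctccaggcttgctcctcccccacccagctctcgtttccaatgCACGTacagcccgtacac
EGLN3: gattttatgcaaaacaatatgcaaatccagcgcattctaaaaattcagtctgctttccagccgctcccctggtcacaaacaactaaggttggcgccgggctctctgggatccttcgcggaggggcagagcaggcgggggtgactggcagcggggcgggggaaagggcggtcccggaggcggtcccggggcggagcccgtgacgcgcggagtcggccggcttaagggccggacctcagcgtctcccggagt

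A window was listed for 33 of the 39 members, and SLC2A3, PFKFB2, SLC16A1, VEGFA, BNIP3L and NDRG1 were not analysed here. The core was present in 20 of the 33 (60.6%), which is close to the 59.8% of the 8398 tested genes with a listed window and above the 43.08% of all 27305 windows. By group it was present in 12 of 22 glycolytic members (54.5%), 6 of 8 HIF targets (75%) and 2 of 3 genes of the HIF system. A match is a sequence of letters and not a measured binding site, and its absence says only that these letters are not in this window.

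After SsA the mRNAs of glucose transporters, of the enzymes from aldolase to pyruvate kinase and of lactate dehydrogenase were mostly higher, while hexokinases and most phosphofructokinase genes did not pass the test. Of the 25 glycolytic members 13 rose (52%), 1 fell (PFKFB2) and 11 did not pass the test (edgeR quasi-likelihood test, adjusted p below 0.05). Over all genes tested, 25.9% were called higher and 27.9% lower, 53.8% in all. The median log2 fold change of the 25 was 0.29, against 0.03 for all tested genes, and 21 of 25 lay above the all-gene median. Of the 11 HIF targets 5 rose, 1 fell (VEGFA) and 5 did not pass, with a median of 0.38. In the HIF system EPAS1 and HIF1AN fell and HIF1A did not pass, with a median of -0.57. With the term for transcript length described below, VEGFA was called higher (log2 0.54), and HIF1AN (0.29) and PFKFB2 (-0.14) did not pass. On the CPM scale (counts scaled by TMM to a common library total) the 3 SsA libraries all lay above the 3 DMSO libraries for 22 members and all below for 5, and the groups overlapped for 12. Over all tested genes the groups did not overlap for 62.8% (30.4% higher and 32.4% lower).

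**Figure D1:**
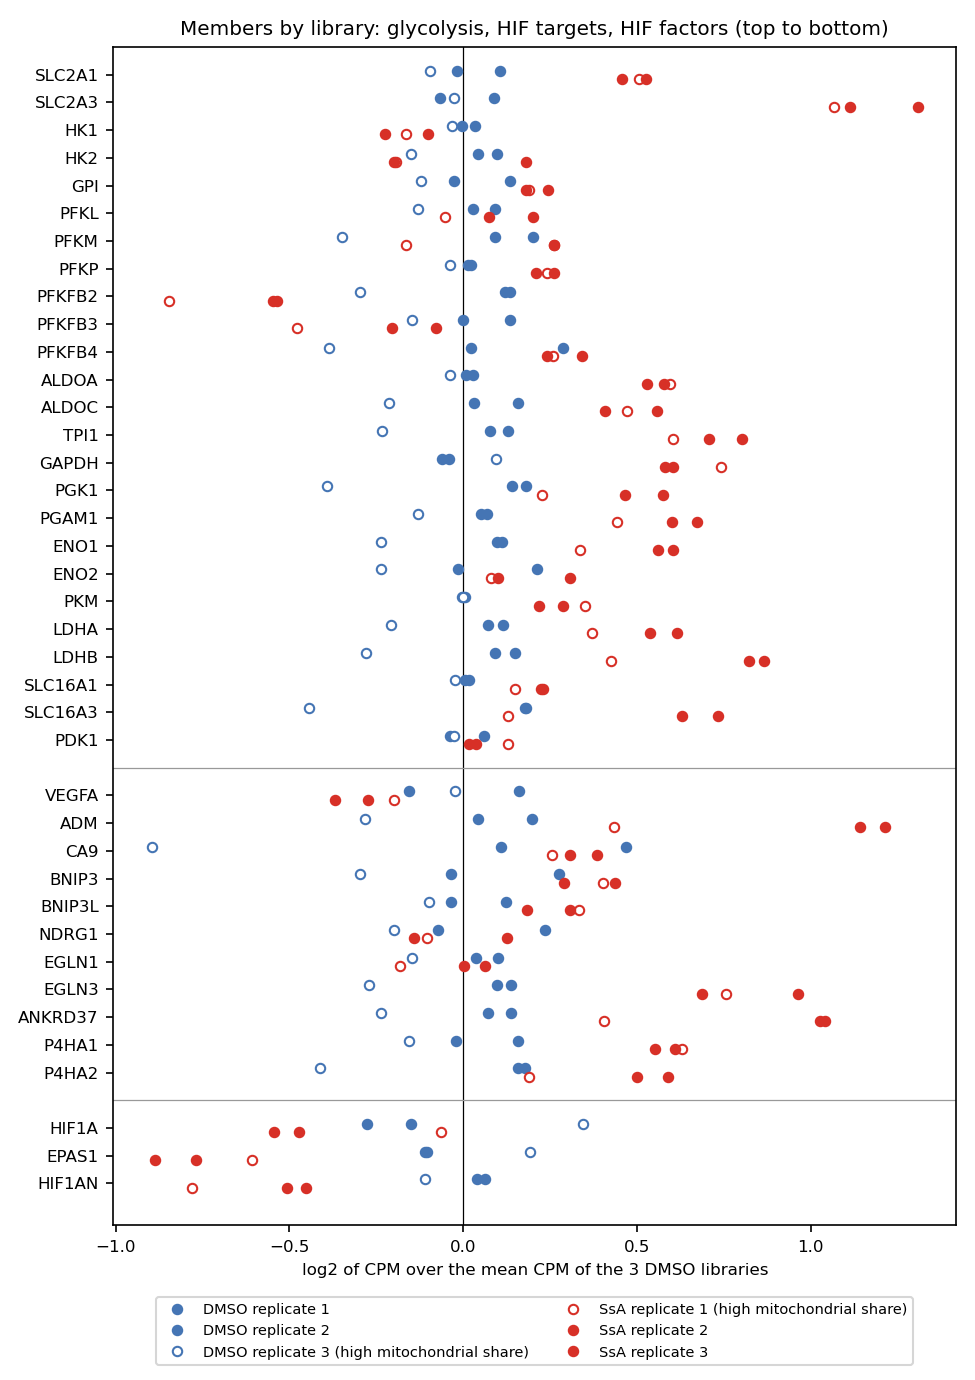
Each row is 1 of the 39 members and each point 1 library, placed by the log2 of its CPM over the mean of the 3 DMSO libraries; blue is DMSO, red is SsA, and open points are the 2 libraries of high mitochondrial share. The red points of SLC2A3 all lie near or above 1, those of EPAS1 and HIF1AN all lie below their blue points, and the open blue point is the lowest DMSO value for most glycolytic members.

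The direction of the glycolytic group depended on the scale. Scaled to TPM (FPKM brought to the same total in each library), which moved the median of all tested genes to -0.31, the glycolytic median was -0.06, and 0 of 25 members passed by limma in either direction (1 higher and 1 lower at an unadjusted p under 0.05). Over all tested genes limma then called 49 higher and 2446 lower, against 2956 and 3190 by edgeR. The FPKM scale moved the all-gene median to -0.11 and the glycolytic median to 0.12, with 3 members called higher and 1 lower by limma (914 and 3723 over all genes). The same number of members, 21 of 25, lay above the all-gene median on each of these scales. For a given gene the scales differ by a factor per library that all genes share. This count could therefore hardly change and gives no separate support. For the HIF targets the TPM median was 0.05, with 8 of 11 above the all-gene median and 0 called by limma (0 higher and 1 lower unadjusted). Of the called members, PFKP, PKM, SLC16A1 and BNIP3L turned negative on the TPM scale, at -0.12, -0.08, -0.16 and -0.09.

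In DMSO the later steps of glycolysis stood far above its entry and its regulators. On the FPKM scale, which is per length, GAPDH led in DMSO at 1707 ± 50.7 FPKM (SD, n = 3), followed by ENO1 at 659 ± 137 FPKM. LDHA (341 FPKM), ALDOA (275), TPI1 (249.7), PKM (247), LDHB (247), PGK1 (196) and PGAM1 (188) came next, and the ranges of neighbours in this stretch overlapped. Only GAPDH, ENO1 and PGAM1 among these 9 were apart from the next gene down. HIF1A had 76.9 ± 11.2 FPKM and EPAS1 9.43 ± 0.319 FPKM. SLC2A1 stood at 10.1 ± 1.47 FPKM, SLC2A3 at 2.88 ± 0.332, and the least abundant member was EGLN3 at 1.56 ± 0.352 FPKM. The summed counts of the 25 glycolytic members were 2.18%, 2.14% and 1.74% of all counts in DMSO replicates 1, 2 and 3, and 2.35%, 2.78% and 2.67% in SsA replicates 1, 2 and 3. Every SsA share of counts was above every DMSO share. As a share of summed FPKM the groups overlapped, at 1.76%, 1.74% and 1.13% in DMSO and 1.35%, 2.04% and 1.92% in SsA.

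Both glucose uptake genes rose. SLC2A3 (GLUT3, a high-affinity glucose transporter; GRCh38 chromosome 12, 7919230 to 7936187, minus strand) had 18.4, 20.5 and 18.9 CPM in DMSO and 40.4, 47.8 and 41.7 CPM in SsA. The groups were far apart, at 19.3 ± 1.09 and 43.3 ± 3.93 CPM (SD, n = 3), a 2.25-fold rise. Its log2 fold change of 1.17 ± 0.09 (SE, edgeR adjusted p = 1.64e-04) was the largest of the 39 members, and it stayed called with each library left out in turn (edgeR adjusted p 3.95e-04 to 0.00171) but not on the TPM scale. SLC2A1 (GLUT1, the widely expressed basal transporter) had 79.3, 72.8 and 68.9 CPM in DMSO and 105, 106 and 101 CPM in SsA. It rose 1.41-fold without overlap (log2 0.50 ± 0.07, edgeR adjusted p = 0.00138).

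The steps that phosphorylate and rearrange hexoses moved little by edgeR without a length term. Of the 6 members 1 was called higher and 0 lower, against 25.9% and 27.9% of all tested genes (median log2 fold change 0.11). With the term for transcript length described below, 2 of the 6 were called higher and 0 lower, and the median was 0.24. Over all tested genes 18.3% and 14.1% were called higher and lower with it. HK1, the ubiquitous hexokinase, had 78.7, 76.7 and 75.2 CPM in DMSO and 68.6, 71.7 and 65.8 CPM in SsA. The groups did not overlap, yet the difference of -0.16 ± 0.06 missed the threshold with all libraries (edgeR adjusted p = 0.0593) and passed without DMSO replicate 3 (-0.19, edgeR adjusted p = 0.0483). HK2, the hypoxia-inducible hexokinase, overlapped between groups (-0.06 ± 0.13 on the log2 scale, edgeR adjusted p = 0.712). Of the phosphofructokinase subunits, which form the committed step, PFKP had 191, 189 and 183 CPM in DMSO and 222, 225 and 217 in SsA. Its rise on the log2 scale was 0.24 ± 0.05 (edgeR adjusted p = 0.00892). PFKL and PFKM overlapped between groups (log2 0.08 and 0.13), and GPI, the isomerase, lay higher in each SsA library without passing (log2 0.21 ± 0.08, edgeR adjusted p = 0.0726).

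The bifunctional PFKFB enzymes make and remove fructose 2,6-bisphosphate, the allosteric activator of phosphofructokinase. PFKFB2 had 50.6, 51.2 and 37.9 CPM in DMSO and 25.9, 32.1 and 31.9 CPM in SsA. It was the only glycolytic member called lower, at 46.6 ± 7.50 against 29.9 ± 3.51 CPM, 1.55-fold lower (log2 -0.64 ± 0.14, edgeR adjusted p = 0.00869), and every SsA library lay below every DMSO library. With the length term PFKFB2 stood at -0.14 and was no longer called (edgeR adjusted p = 0.538). PFKFB3, the isoform with the strongest kinase activity, had a log2 fold change of -0.24 ± 0.13, and the hypoxia-responsive PFKFB4 one of 0.28 ± 0.17. Neither passed edgeR's test (adjusted p 0.151 and 0.201), and the groups overlapped for both.

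In the stretch from aldolase to pyruvate kinase 7 of 9 members rose and 0 fell, against 25.9% and 27.9% of all tested genes, and the median log2 fold change was 0.50. With the length term 4 of the 9 (ALDOA, PGAM1, TPI1 and PGK1) were called higher, against 18.3% of all tested genes, and the median was 0.31. TPI1, which interconverts the triose phosphates, had 806, 776 and 626 CPM in DMSO and 1118, 1285 and 1202 CPM in SsA, a 1.63-fold rise (log2 0.71 ± 0.11, edgeR adjusted p = 0.00229). GAPDH, the triose dehydrogenase, had 4391, 4333 and 4819 CPM in DMSO and 7549, 6866 and 6751 in SsA, a 1.56-fold rise (log2 0.64 ± 0.10, edgeR adjusted p = 0.00215). In both genes all SsA libraries were above all DMSO libraries. PGAM1, a phosphoglycerate mutase, rose 1.49-fold (log2 0.58 ± 0.09), the aldolase ALDOA 1.48-fold (0.57 ± 0.07) and ALDOC, another aldolase, 1.40-fold (0.48 ± 0.10). With the length term the log2 estimates were 0.35 for TPI1, 0.31 for GAPDH, 0.23 for PGAM1, 0.39 for ALDOA and 0.17 for ALDOC.

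ENO1, the main enolase, had 4019, 4058 and 3185 CPM in DMSO and 4743, 5701 and 5532 in SsA (log2 0.50 ± 0.13, edgeR adjusted p = 0.0172). PKM, the pyruvate kinase of tumours and most tissues, had 2331 ± 6.67 and 2845 ± 133 CPM (SD, n = 3; log2 0.29 ± 0.08, edgeR adjusted p = 0.0209). Neither overlapped between groups, and both calls depended on single libraries. That of ENO1 was lost without SsA replicate 2 or SsA replicate 3 (edgeR adjusted p 0.0702 and 0.0619). That of PKM was lost without DMSO replicate 1, DMSO replicate 2 or SsA replicate 2 (0.0919, 0.0861 and 0.0780). PGK1, which makes ATP from bisphosphoglycerate, had 1314, 1278 and 884 CPM in DMSO and 1356, 1727 and 1601 in SsA. It did not pass (log2 0.43 ± 0.17, edgeR adjusted p = 0.0666), although it did without SsA replicate 1 (0.52, edgeR adjusted p = 0.0425). Without DMSO replicate 3 its log2 fold change was 0.25 (edgeR adjusted p = 0.10). ENO2, the neuronal enolase, overlapped between groups (log2 0.17 ± 0.13). GENCODE names 62 pseudogenes after GAPDH and 13 after PGAM1, whose near-identical sequence could share reads with the parent genes.

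Lactate dehydrogenase rose in both subunits. LDHB had 857, 892 and 662 CPM in DMSO and 1079.6, 1423 and 1466 CPM in SsA, a 1.65-fold rise (log2 0.72 ± 0.16, edgeR adjusted p = 0.00826). LDHA had 2435, 2363 and 1949.8 CPM in DMSO and 2908, 3448 and 3266 in SsA, a 1.43-fold rise (log2 0.51 ± 0.12, edgeR adjusted p = 0.0105). Every SsA library exceeded every DMSO library for both, and SsA replicate 1 was the lowest of the treated libraries. With the length term neither passed, at 0.31 for LDHB and 0.31 for LDHA (edgeR adjusted p 0.0969 and 0.0654). Neither was called by limma on the FPKM or TPM scale. SLC16A1 (MCT1, a lactate carrier) had 223, 221 and 217 CPM in DMSO and 244, 258 and 257 in SsA. That rise of 0.20 ± 0.06 (edgeR adjusted p = 0.0197) was lost without DMSO replicate 1, DMSO replicate 2, SsA replicate 2 or SsA replicate 3 (0.0609, 0.0611, 0.0789 and 0.0715). SLC16A3 (MCT4, the hypoxia-inducible lactate exporter) had 355, 355 and 231 CPM in DMSO and 343, 521 and 486 in SsA, and the groups overlapped. Its log2 fold change of 0.52 ± 0.21 missed the threshold (edgeR adjusted p = 0.0734) and passed without SsA replicate 1 (0.68, edgeR adjusted p = 0.0217), while without DMSO replicate 3 it was 0.32 (edgeR adjusted p = 0.146). PDK1, the kinase that restrains pyruvate entry into mitochondria, had 39.5, 36.9 and 37.2 CPM in DMSO and 41.4, 38.8 and 38.3 in SsA, with overlapping groups (log2 0.06 ± 0.07, edgeR adjusted p = 0.465).

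The balance between isozymes was read within each library as a share of the family's summed FPKM, which does not depend on the scaling between libraries but does carry the trend of fold changes with transcript length. SLC2A3 supplied 20.2%, 23.5% and 23.0% of the SLC2A1 and SLC2A3 sum in DMSO and 29.6%, 32.9% and 31.0% in SsA, a gain of 8.97 points without overlap. PFKFB2 supplied 46.9%, 47.7% and 45.9% of the PFKFB sum in DMSO and 35.2%, 36.9% and 37.1% in SsA, while PFKFB4 went from 20.6% ± 2.31 to 30.6% ± 2.70 (SD, n = 3), also without overlap. EGLN3 supplied 6.99%, 7.09% and 6.27% of the EGLN1 and EGLN3 sum in DMSO and 12.3%, 12.0% and 10.5% in SsA. EPAS1 supplied 11.1%, 12.0% and 9.87% of the HIF1A and EPAS1 sum in DMSO and 7.71%, 9.03% and 8.75% in SsA, without overlap. By contrast the groups overlapped for HK2 among hexokinases, PFKP among phosphofructokinases, ALDOC among aldolases, LDHB among lactate dehydrogenase subunits (41.9% ± 1.31 and 45.3% ± 2.35) and SLC16A3 among lactate carriers. PFKL supplied 22.1% ± 0.630 of the phosphofructokinase sum in DMSO and 20.6% ± 0.618 in SsA, and ENO2 1.06% ± 0.0867 and 0.841% ± 0.0609 of the enolase sum, both lower without overlap. The members compared differ in length: with the length term the log2 fold changes were 0.70 for EGLN3 and 0.46 for EGLN1, where they were 0.81 and -0.04 without it, and 0.33 for PFKFB4 and -0.14 for PFKFB2, where they were 0.28 and -0.64. An exact permutation test of 3 against 3 libraries cannot go below a 2-sided p of 0.10, so no test is given for these shares.

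**Figure D2:**
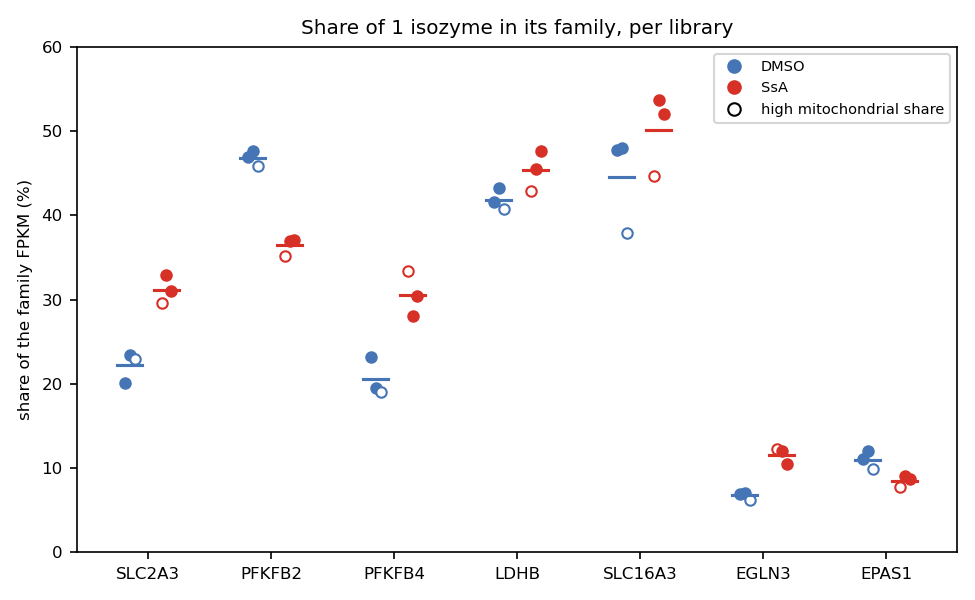
Share of 1 isozyme in its family's summed FPKM (vertical axis, percent), 1 point per library, blue for DMSO and red for SsA, with open points for the libraries of high mitochondrial share. SLC2A3, PFKFB4 and EGLN3 lie higher in all 3 SsA libraries, and PFKFB2 and EPAS1 lie lower.

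Among the 11 HIF targets outside glycolysis 5 rose and 1 fell, against 25.9% and 27.9% of all tested genes. ADM, the vasodilator peptide adrenomedullin, had 7.53, 8.40 and 6.02 CPM in DMSO and 9.89, 16.2 and 16.99 CPM in SsA, a 1.96-fold rise (log2 0.97 ± 0.23, edgeR adjusted p = 0.0117). ANKRD37, an ankyrin repeat protein, had 20.1, 21.1 and 16.2 CPM in DMSO and 25.4, 39.4 and 39.04 in SsA, a 1.81-fold rise (log2 0.85 ± 0.19, edgeR adjusted p = 0.00832). Neither overlapped between groups, and in both SsA replicate 1 stood nearest to the DMSO libraries. With the length term ADM (0.64) and ANKRD37 (0.43) did not pass (edgeR adjusted p 0.0545 and 0.0683). EGLN3, a HIF prolyl hydroxylase that HIF itself induces, had 13.8, 13.4 and 10.4 CPM in DMSO and 21.2, 24.5 and 20.2 in SsA, a 1.75-fold rise (log2 0.81 ± 0.14, edgeR adjusted p = 0.00304). P4HA1, a catalytic subunit of collagen prolyl hydroxylase, had 58.1, 51.3 and 46.7 CPM in DMSO and 80.6, 76.3 and 79.4 in SsA, a 1.51-fold rise (log2 0.60 ± 0.09, edgeR adjusted p = 0.00169). In these 2 genes SsA replicate 1 stood within the range of the other SsA libraries or above it. GENCODE places EGLN3 over SPTSSA on the same strand and ANKRD37 against UFSP2 on the opposite strand, and how the counting treated strand is not given, so reads of such neighbours may be shared.

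BNIP3L, a mitophagy receptor, had 61.3, 55.0 and 52.5 CPM in DMSO and 70.9, 69.6 and 63.9 in SsA. Its rise of 0.28 ± 0.08 (edgeR adjusted p = 0.0256) was lost without DMSO replicate 2, DMSO replicate 3, SsA replicate 1 or SsA replicate 2 (0.0961, 0.0788, 0.0549 and 0.0853). BNIP3, its close relative, was higher in each SsA library without passing (log2 0.38 ± 0.14, edgeR adjusted p = 0.0541) and passed without DMSO replicate 1 (0.53, edgeR adjusted p = 0.0137); GENCODE names 39 pseudogenes after it. P4HA2 likewise did not pass (0.44 ± 0.18, edgeR adjusted p = 0.0738) except without SsA replicate 1 (0.54, edgeR adjusted p = 0.0401). Without DMSO replicate 3 the estimates were 0.23 for BNIP3 (edgeR adjusted p = 0.111) and 0.25 for P4HA2 (0.119). VEGFA, the angiogenic growth factor, had 111, 88.9 and 97.5 CPM in DMSO and 86.2, 81.9 and 76.7 in SsA. Its log2 fold change of -0.28 ± 0.09 (edgeR adjusted p = 0.0403) lost its call without DMSO replicate 1, DMSO replicate 3, SsA replicate 2 or SsA replicate 3 (0.127, 0.0570, 0.101 and 0.131). With the length term VEGFA was called higher, at 0.54 (edgeR adjusted p = 0.00522).

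CA9, the carbonic anhydrase often used as a marker of HIF1A activity, had 38.8, 30.3 and 15.1 CPM in DMSO and 33.5, 34.8 and 36.7 in SsA. The groups overlapped, and the DMSO spread rested on replicate 3 (log2 0.31 ± 0.30, edgeR adjusted p = 0.403, and -0.00 without DMSO replicate 3). NDRG1, a stress-inducible growth regulator, and EGLN1, the main HIF prolyl hydroxylase, also overlapped, at -0.03 ± 0.13 and -0.04 ± 0.09 on the log2 scale.

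In the HIF system itself EPAS1 (HIF2A; GRCh38 chromosome 2, 46293667 to 46386696, plus strand) had 70.6, 70.8 and 87.1 CPM in DMSO and 50.0, 44.8 and 41.2 CPM in SsA. All SsA libraries lay below all DMSO libraries, at 45.3 ± 4.45 against 76.2 ± 9.49 CPM, 1.68-fold lower (log2 -0.75 ± 0.11, edgeR adjusted p = 0.00176). This call held under each alternative run. HIF1AN, the asparaginyl hydroxylase, had 72.0, 70.8 and 63.9 CPM in DMSO and 40.1, 50.4 and 48.5 CPM in SsA, 1.49-fold lower without overlap (log2 -0.57 ± 0.10, edgeR adjusted p = 0.00352). This fall was not seen with the length term, where the log2 fold change was 0.29 and did not pass (edgeR adjusted p = 0.115). HIF1AN overlaps NDUFB8 on the opposite strand. HIF1A had 399, 365 and 562 CPM in DMSO and 423, 319 and 303 in SsA. The high value of each group came from its library of high mitochondrial share, the groups overlapped, and the difference did not pass (log2 -0.34 ± 0.19, edgeR adjusted p = 0.168). In the 4 other libraries alone it was -0.32 and passed (edgeR adjusted p = 3.39e-04), while without DMSO replicate 3 alone it was -0.15 (edgeR adjusted p = 0.457). The p-value from the 4 libraries measures only the spread between the low-share libraries, which lay close together within each group.

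Fold changes over all genes moved with transcript length, so each member was also fitted with a length term (an offset by loess on the log2 length of the longest GENCODE 29 transcript). Over 5 equal bins of 2008 protein-coding genes, the median log2 fold change went from 0.52 at a median length of 1594 nt to -0.54 at 7542 nt. The glycolytic members had a median length of 3586 nt. With the length term 11 of 25 rose by edgeR and 0 fell (16 and 0 at an unadjusted p under 0.05), against 18.3% and 14.1% of all tested genes (32.3% in all), and the glycolytic median was 0.31. ALDOA, PGAM1, SLC16A1, SLC2A1, SLC2A3 and TPI1 were called higher in both fits, PGAM1 and TPI1 with smaller estimates with the term (0.23 and 0.35, from 0.58 and 0.71) and SLC16A1 with a larger estimate (0.38, from 0.20). ALDOC, ENO1, GAPDH, LDHA, LDHB, PFKP and PKM were called only without the term, and each estimate was smaller with it. GAPDH went from 0.64 to 0.31 (edgeR adjusted p = 0.0860), LDHB from 0.72 to 0.31 (0.0969), LDHA from 0.51 to 0.31 (0.0654) and ENO1 from 0.50 to 0.33 (0.0778). ALDOC went from 0.48 to 0.17 (edgeR adjusted p = 0.190), PFKP from 0.24 to 0.12 (0.121) and PKM from 0.29 to 0.22 (0.0777). GPI, PDK1, PFKL, PGK1 and SLC16A3 were called only with the term, PDK1 with a log2 fold change of 0.97 (edgeR adjusted p = 4.37e-04) on a listed transcript of 14193 nt. PFKFB2 was no longer called (-0.14, edgeR adjusted p = 0.538).

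Of the HIF targets 5 rose and 0 fell by edgeR with the length term (9 and 0 unadjusted), against 18.3% and 14.1% of all tested genes, of which BNIP3L, EGLN3 and P4HA1 were called in both fits. ADM (0.64, edgeR adjusted p = 0.0545) and ANKRD37 (0.43, 0.0683) were called only without it. VEGFA changed sign, from -0.28 to 0.54 (edgeR adjusted p = 0.00522), with a longest transcript of 12167 nt. HIF1AN changed sign too, to 0.29 without passing (edgeR adjusted p = 0.115), with a longest transcript of 13011 nt. The longest transcript need not be the one these cells express. EPAS1 stayed lower (-0.46, edgeR adjusted p = 0.0143), and SLC2A3 was at 1.35 (edgeR adjusted p = 3.1e-04).

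**Figure D3:**
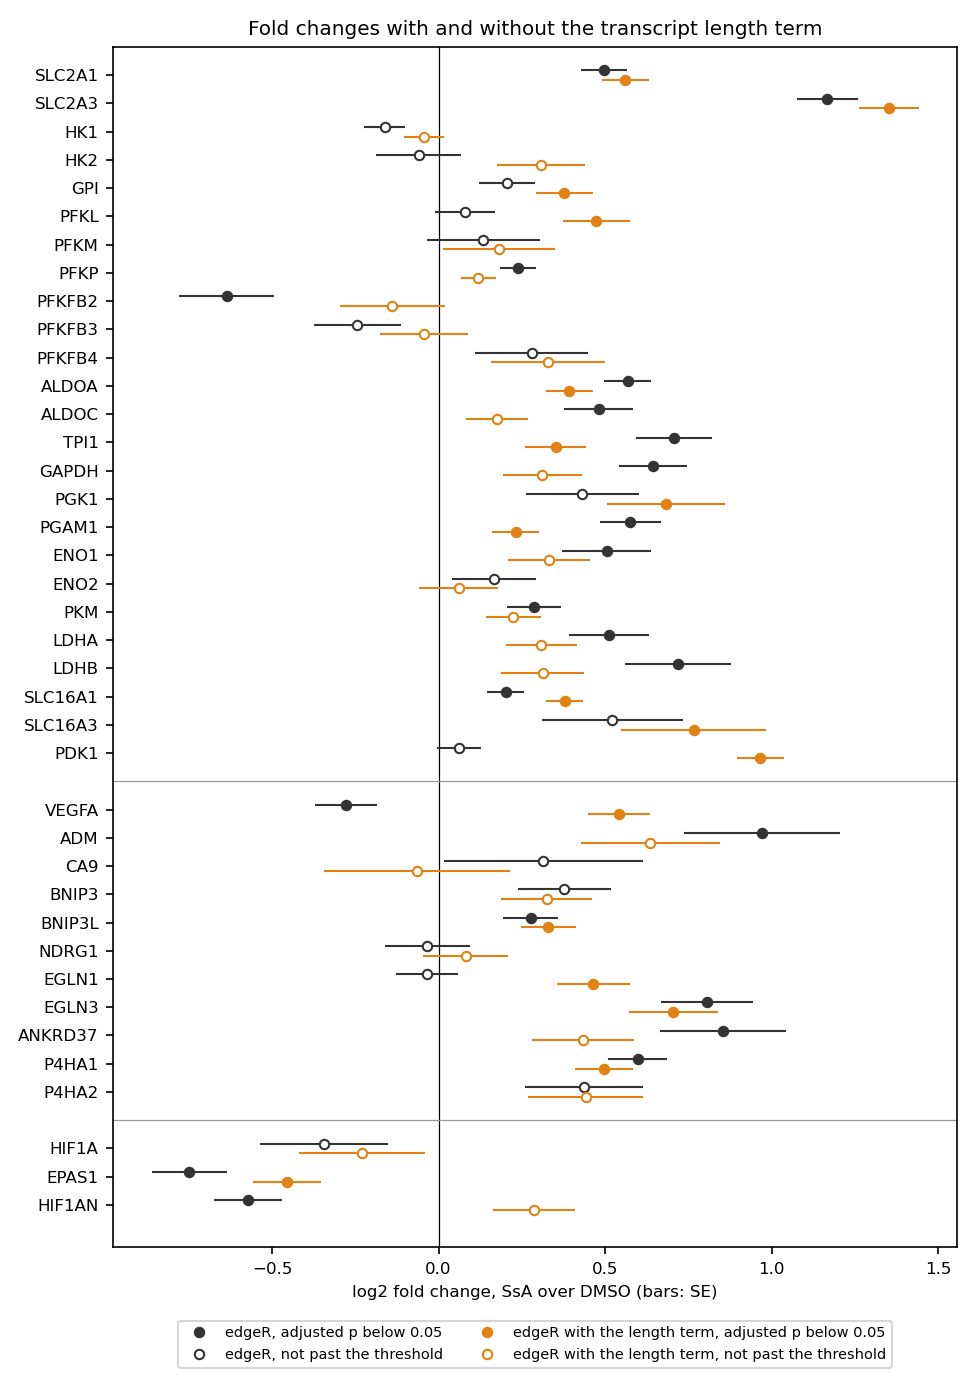
Log2 fold change of each member, SsA over DMSO, with its SE, without the length term (dark) and with it (orange); filled points passed the edgeR threshold. SLC2A3 and EGLN3 were higher and EPAS1 lower in both fits, while VEGFA and HIF1AN changed sign. The TPM scale, on which the called PFKP, PKM, SLC16A1 and BNIP3L turned negative, is not plotted.

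**Figure D4:**
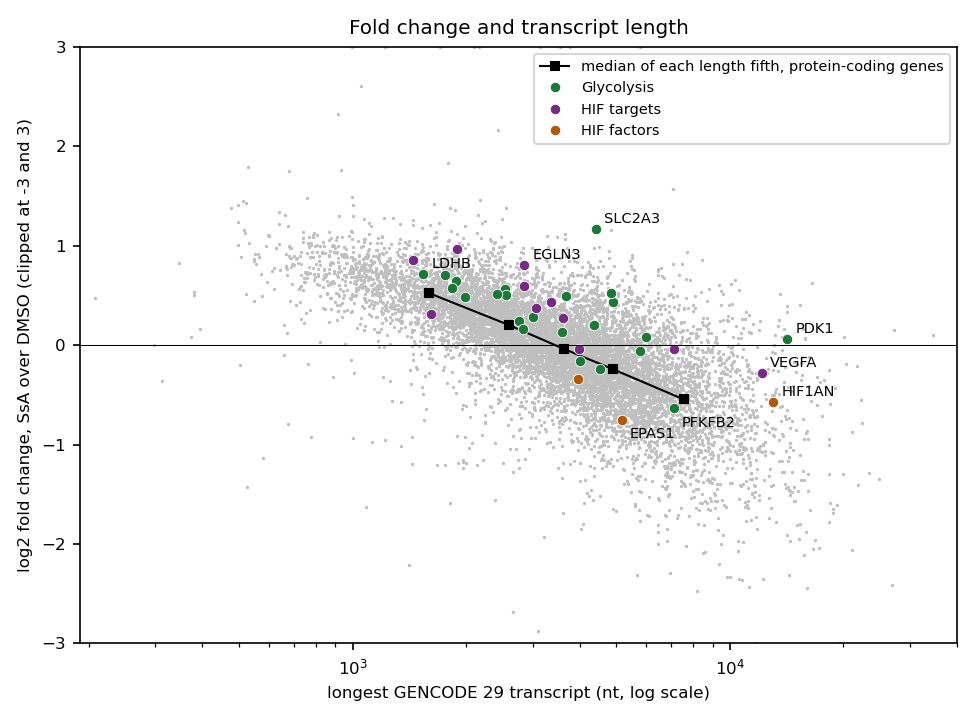
Log2 fold change (vertical axis, without the length term) against the longest GENCODE 29 transcript (log axis, nt) for the tested protein-coding genes with a length (grey) and the members (coloured by group). Grey points beyond the vertical axis limits are clipped to them. The black line joins the medians of the 5 length bins, from 0.52 down to -0.54; SLC2A3 lies well above it, and EPAS1 lies below it.

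The 2 libraries of high mitochondrial share stood apart in these genes. In DMSO replicate 3, 24 of 25 glycolytic members and 11 of 11 HIF targets were lower than the mean of the other DMSO libraries (median log2 difference -0.22 and -0.34), where the median of all tested genes was -0.00. In SsA replicate 1, 19 of 25 and 7 of 11 were lower than the mean of the other SsA libraries (-0.15 and -0.09). Compared with each other, SsA replicate 1 over DMSO replicate 3, these libraries gave a glycolytic median of 0.57, against 0.25 for the mean CPM of the other 4 libraries, and a HIF target median of 0.64 against 0.24. The sign was the same for 38 of 39 members. CA9 differed most, at 1.15 in the high-share pair and 0.05 in the other 4 libraries, with 15.1 CPM in DMSO replicate 3.

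Fitted in the 4 libraries of low share alone, 16 of 25 glycolytic members rose and 2 fell, against 33.3% and 34.5% of all tested genes (67.8% in all). The squared difference per gene was 15.6 (DMSO) and 15.3 (SsA) times that of sampling alone between the 2 low-share libraries of a group. It was 312 to 410 for pairs with a high-share library. The p-values of fits in these 4 libraries measure only the smaller spread. All 13 members called higher with 6 libraries were among the 16, joined by GPI, PGK1 and SLC16A3, and HK1 joined PFKFB2 as lower (-0.20, edgeR adjusted p = 0.00988). Of the HIF targets all 5 stayed called, joined by P4HA2, and VEGFA stayed lower. In these 4 libraries with the length term as well, 17 glycolytic members were called higher and 1 lower, and 8 HIF targets higher and 1 lower, against 30.8% and 21.9% of all tested genes (52.7% in all). HIF1AN was then called higher, at 0.31.

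**Figure D5:**
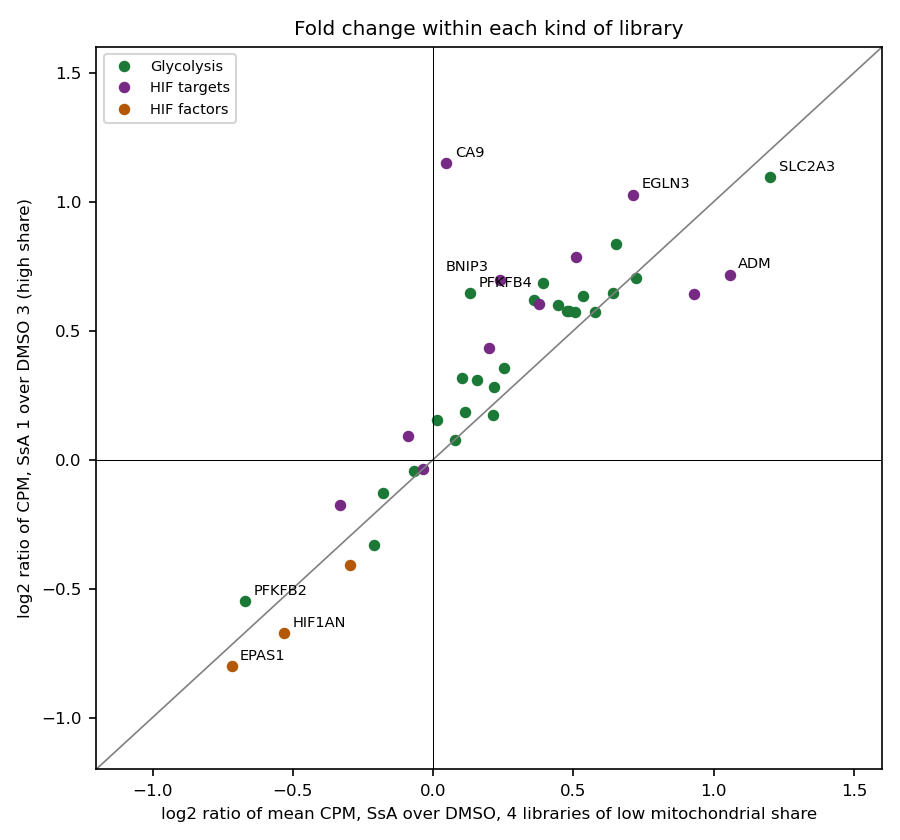
Each point is 1 member: the log2 CPM ratio of SsA replicate 1 over DMSO replicate 3 (vertical axis) against the log2 ratio of the group means in the 4 libraries of low mitochondrial share (horizontal axis), with the line of equality. Most glycolytic genes and HIF targets lie above the line, CA9 farthest, and the HIF factors lie near it.

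The rest of the pathway was read from 4 further lists, of which 67 genes were tested. Of these 25 rose, 12 fell and 30 did not pass (37.3% higher and 17.9% lower, against 25.9% and 27.9% of all tested genes). With the length term 24 rose and 7 fell (35.8% and 10.4%, against 18.3% and 14.1%). Among isozymes of narrow tissue range 2 of 3 rose, the mutase gene PGAM4 (0.79, inside PGK1 on the opposite strand) and the muscle enolase ENO3 (0.65). PGAM4 had only 329 to 610 counts per library, and some of its reads may be shared with PGK1. Of the 22 enzymes beside the path 12 rose and 2 fell, and with the length term 10 rose and 0 fell. G6PC3, a glucose phosphatase, had a log2 rise of 0.67 ± 0.07, BSG, the chaperone of lactate carriers, one of 0.62 ± 0.06 and MPC1, a subunit of the mitochondrial pyruvate carrier, one of 0.61 ± 0.13. SLC16A7 (MCT2), a high-affinity monocarboxylate carrier, was called lower at -0.81 ± 0.12, but stood at -0.01 with the length term, and PDP1, the phosphatase that opposes PDK1, was lower at -0.55 ± 0.14. With the length term PGAM4 (0.35), MPC1 (0.16) and PDP1 (-0.37) no longer passed.

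Of 28 further HIF targets 6 rose, 5 fell and 17 did not pass (21.4% higher, against 25.9% of all tested genes), and with the length term 8 rose and 2 fell (28.6% higher, against 18.3%). Among those that rose were the secreted stanniocalcin STC2 (0.73 ± 0.15) and the mitochondrial protein FAM162A (0.62 ± 0.10), and both passed with the length term as well. KDM4B, a histone demethylase, led those that fell (-0.98 ± 0.14), followed by the glycogen synthase GYS1 (-0.48 ± 0.14) and WSB1 (-0.36 ± 0.08). The call of GYS1 was lost without DMSO replicate 3, SsA replicate 2 or SsA replicate 3 (edgeR adjusted p 0.0582, 0.0905 and 0.0894), and with the length term neither GYS1 (-0.43) nor WSB1 (-0.07) passed. Of 14 HIF partners and genes of its degradation machinery 5 rose and 5 fell (35.7% each, against 25.9% and 27.9% of all tested genes). With the length term 5 rose and 5 fell as well, against 18.3% and 14.1%. The elongin and cullin ligase subunits ELOB (1.14 ± 0.20) and RBX1 (0.92 ± 0.17) rose, as did RACK1 (0.68 ± 0.07). The coactivators showed the largest falls of these lists: CREBBP had 108, 104 and 157 CPM in DMSO and 38.9, 27.6 and 27.4 in SsA, 3.94-fold lower (log2 -1.98 ± 0.21, edgeR adjusted p = 4.37e-04). EP300 had 111, 116 and 180.3 CPM in DMSO and 50.5, 28.4 and 29.9 in SsA, 3.75-fold lower (log2 -1.91 ± 0.28, edgeR adjusted p = 0.00159). Both stayed lower with the length term, at -1.22 and -1.22. USP20, a deubiquitinase, was lower at -0.54 ± 0.09, and VHL, the ligase receptor, at -0.34 ± 0.08. ARNT, the shared partner, did not pass (-0.26 ± 0.13, edgeR adjusted p = 0.139).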

How the data were processed

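RNA from 6 libraries (3 DMSO, 3 SsA) was poly(A) selected, per the labels' protocols, and sequenced. The submitters' processing notes name GRCh38 as build and list HISAT2 2.0.4, StringTie 1.3.4d and cutadapt 1.9, with no settings. Per the file headers, the deposited table gave each gene a count and an FPKM in every library; the authors had divided FPKM by length and library size. Column names containing SA were taken to mean SsA. TMM-scaled counts went into edgeR 4.0.16 (quasi-likelihood, 2-sided, Benjamini-Hochberg over 11427 genes, threshold 0.05) in R 4.3.3; the biological coefficient of variation was 15.3%. The SE was the log2 fold change over the root of F. limma 3.58.1 ran on log2(FPKM + 1) and log2(TPM + 1), and DESeq2 1.42.0 on counts. Lengths came from GENCODE 29 (28679 rows matched, 99.6% of tested genes). Tested on counts simulated for this comparison over 11427 genes, edgeR recovered 37.3% of the 1.5-fold and 88.1% of the 2-fold changes, with 3.92% false calls. That simulation changed only 67, 67 and 66 genes by 1.5-, 2- and 4-fold and held no length trend. In the real data 53.8% of genes were called, so these rates need not carry over. No 2 libraries of a group agreed within sampling noise.

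The members, lists and tests were chosen with earlier results of these data known. All 39 members were named; from each further list, the 3 called genes of largest absolute log2 fold change per direction. A gene that the rule names among the further HIF targets is not reported here. VHL, ARNT and the marker genes named were chosen after their values were seen. Depth was 57768359 to 74912492 counts per library, and the least counted member, ADM, had 337 counts in its lowest library. SLC2A2, PKLR, HK3, PGAM2, GAPDHS and HIF3A were not analysed here.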

Additional observations from a re-analysis of the deposited data

How the results depend on the processing

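EPAS1 was called lower under every alternative run, and SLC2A3, ALDOA, EGLN3 and P4HA1 were called higher under each that tested them except the TPM scale. The length implied by counts and FPKM, and the 4 libraries with the length term, were alternatives chosen after seeing the data. With a mean FPKM of at least 5, which left 6197 genes, 26.9% were called higher and 28.4% lower (1666 and 1762). Of the members tested there, 8 of 19 glycolytic genes (42.1%) and 2 of 8 HIF targets (25%) were higher. Of the further lists 14 of 43 genes (32.6%) were higher. PFKP, ENO1, PKM, SLC16A1 and BNIP3L were still tested but lost their calls, and PFKL was at -0.037. The cause of the differences between the alternatives was not tested. On log2(FPKM + 1), 914 genes, 3 glycolytic members, 2 HIF targets and 9 further genes were higher, with PFKL at -0.079, PFKM -0.023, PDK1 -0.071 and HIF1A -0.49 (called). On log2(FPKM + 0.1) these were 886, 3, 2 and 8, with PFKL -0.084, PFKM -0.023, PDK1 -0.097 and HIF1A -0.50 (called). On log2(TPM + 1), 49 genes were higher, 0 glycolytic members and 0 HIF targets passed either way, and 0 further genes were higher and 6 lower. There GPI stood at -0.15, PFKL -0.28, PFKM -0.22, PFKP -0.12, PFKFB4 -0.058, ENO2 -0.18, PKM -0.078, SLC16A1 -0.16, PDK1 -0.27, BNIP3L -0.085, HIF1A -0.70 (called) and HIF1AN -0.86 (not called). With the length term, 1606 genes, 0 glycolytic members, 0 HIF targets and 7 further genes were lower, with HK2 at 0.31, VEGFA 0.54, CA9 -0.066, NDRG1 0.081, EGLN1 0.46 and HIF1AN 0.29. With the implied length, 2044 genes, 0 glycolytic members, 0 HIF targets and 7 further genes were lower. There 8 HIF targets were higher, against 23.0% of all tested genes, with HK1 at 0.016, HK2 0.084, VEGFA 0.33, CA9 -0.079, NDRG1 0.48, EGLN1 0.053 and HIF1AN 0.017. Glycolysis had 2 members lower (8%) by DESeq2, in the 4 low-share libraries, with a term for the mitochondrial share and with mitochondrially encoded genes left out. Over all genes these fits called 30.0%, 34.5%, 35.4% and 28.4% lower. In the 4 libraries PDK1 was at -0.013 and HIF1A at -0.32 (called), and with the share term NDRG1 was at 0.016, EGLN1 0.018 and HIF1A -0.46 (called). In the 4 libraries with the length term 8 HIF targets were higher, against 30.8% of all tested genes, with HK2 at 0.29, ENO2 -0.0092, VEGFA 0.48, CA9 -0.35, NDRG1 0.019, EGLN1 0.46, HIF1A -0.19 (called), HIF1AN 0.31 and SLC16A7 0.041. With no expression filter 0 HIF targets were lower, against 10.8% of all genes, and NDRG1 and EGLN1 were at 0.021 and 0.021. Leaving out each library in turn gave 1 to 2 glycolytic members and 0 to 1 HIF targets lower, against 22.7% to 28.4% of all tested genes. The log2 fold changes then ranged from -0.20 to 0.0062 for HK2, -0.032 to 0.26 for PFKM, -2.2e-04 to 0.61 for CA9, -0.14 to 0.096 for NDRG1 and -0.12 to 0.033 for EGLN1. Deviations of same-numbered libraries from their group means had correlations of -0.34, 0.29 and -0.35, while DMSO replicate 3 and SsA replicate 1 gave 0.55. The high-share libraries carry different numbers in the 2 groups, so these correlations cannot tell whether the numbers pair the samples. A replicate block gave 2074 genes higher and 2542 lower, 9 glycolytic members higher and 1 lower, and 6 HIF targets higher and 0 lower. The least counted members were ADM, PFKFB4 and EGLN3, with at least 337, 530 and 582 counts per library, and the largest SE was that of CA9 (0.30).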
